A study of Homo sapiens with 6 samples.

Results

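The 10 genes described here are SPRY1, SPRY2, SPRY4, SPRED1, SPRED2, SPRED3, ETV4, ETV5, PHLDA1 and IER3, a hand-made list of genes that are commonly transcribed when ERK is active and of which most act back on that pathway. They were taken by name from the 39168 Ensembl identifiers of the deposited tables, each of the 10 stood on a single row, and all 10 were among the 12821 genes that passed the filter on low counts. CAL62 is an established anaplastic thyroid carcinoma (ATC) cell line, labelled with a WT genotype. The libraries were made from total RNA of cells that received either 50 nM erianin, the compound under study, or the solvent DMSO, in both cases for 48 h. Each group holds 3 libraries, which the labels number as replicates without saying whether they came from separate cultures, so the p-values below measure the spread between these libraries, which may be technical. The study asks with these libraries how erianin acts on ATC cells, and it follows the MAPK/ERK pathway further at the protein level, which was not analysed here.

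In the MAPK/ERK pathway a growth factor receptor activates Ras, which activates the kinases RAF, MEK and ERK in turn, and ERK then switches on a set of target genes. Several of these targets limit the signal: Sprouty (SPRY) proteins act below receptor tyrosine kinases, SPRED proteins bring the Ras inactivator neurofibromin to the membrane, and PHLDA1 counteracts receptor and Akt signalling. ETV4 and ETV5 are transcription factors of the ETS class that carry the ERK signal to further genes. Transcripts of some genes of the list, though not the list as a whole, are used as a readout of ERK activity in tumour cells.

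Reads counted on named genes ranged from 25776301 to 34107727 per library. DMSO replicate 3 stood apart from the other DMSO libraries: the chi-square per gene was 93.9 and 107 against DMSO replicates 1 and 2, which differed from each other by 4.42, and the erianin libraries differed among themselves by 3.81 to 4.81. Where this library weighed on a value, the value without it is given as well. The labelled thyroid origin was carried by few markers, since TG, TSHR, NKX2-1 and SLC5A5 were each under 1 TPM in every library, while PAX8 was expressed, and the immune and endothelial markers examined were also under 1 TPM throughout. The summed level of the 6 thyroid markers examined lay between 144 and 153 TPM with DMSO and between 108 and 110 TPM with erianin. Nearly all of it was PAX8, a thyroid transcription factor, which was called lower in edgeR (log2 fold change -0.66, adjusted p 0.00403), while FOXE1, a further one at 1.86 to 3.65 TPM, was not called (0.03, adjusted p 0.963). The summed epithelial markers ranged from 1160 to 1771 TPM and from 1496 to 1637 TPM in these groups, and the summed mesenchymal markers from 808 to 961 TPM and from 655 to 687 TPM. The epithelial sum was mostly KRT8, KRT18 and KRT19, each lowest in DMSO replicate 3, and CDH1 was under 1 TPM in every library. Of the mesenchymal markers, FN1 was called lower in edgeR (-0.80, adjusted p 0.00761). VIM had an adjusted p of 0.03 in edgeR (-0.47) but was not called. The part of these marker levels in the results below was not tested.

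Erianin-treated cells held less SPRED3 RNA and more IER3 RNA than DMSO-treated cells, and the other 8 genes did not pass both thresholds of the test. SPRED3 was 2.32-fold lower and IER3 was 1.45-fold higher with erianin. The 2 calls were thus in opposite directions, and the SPRY genes and both ETV genes contributed none. The test was the quasi-likelihood test of edgeR on the counts of all 12821 genes, and a gene was called at a Benjamini-Hochberg adjusted p under 0.05 together with an absolute log2 fold change over 0.5. By this rule 1 of the 10 genes was called higher, where 5.37% of all tested genes were, and 1 was called lower, where 3.36% of all tested genes were. Without the fold-change threshold 3 of the 10 had an adjusted p under 0.05, against 14.9% of all tested genes. The median log2 fold change was -0.09 over the 10 genes and 0.00 over all tested genes, with 4 of the 10 values above 0 and 6 below.

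**Figure D1:**
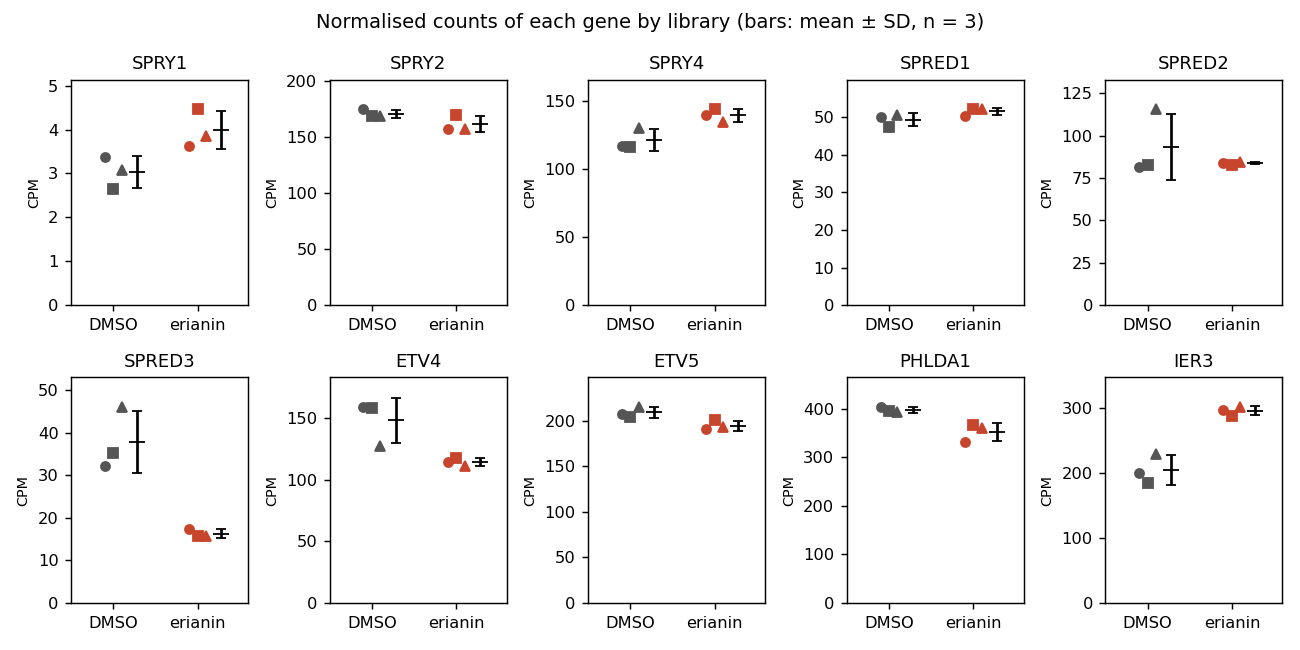
Counts of each gene scaled to library size (CPM, linear axes starting at 0) in the 3 DMSO and 3 erianin libraries, with 1 panel for each gene. Circles, squares and triangles are replicates 1, 2 and 3, and the bars give the mean ± SD. The groups lie far apart for SPRED3 and IER3, and DMSO replicate 3 lies away from the other DMSO libraries for SPRED2, SPRED3 and ETV4.

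Levels of different genes were compared in TPM, which scales counts by gene length. IER3, an immediate-early gene whose small protein is an ERK substrate, had the highest level of the 10 in both groups, at 463 ± 28.9 TPM with DMSO and 770.3 ± 29 TPM with erianin (mean ± SD, n = 3). SPRY2 followed with 208 ± 13.1 and 226 ± 7.31 TPM, and then PHLDA1 with 119 ± 7.32 and 121 ± 6.49 TPM. SPRY1 had the lowest level, 1.38 ± 0.171 and 2.08 ± 0.206 TPM, so that the set spanned genes that were abundant in CAL62 cells and a gene at 1.25 to 2.31 TPM.

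Between these ends, the order with DMSO was ETV5 (98.7 TPM), ETV4 (57.0 TPM), SPRED2 (52.7 TPM), SPRY4 (49.6 TPM), SPRED1 (30.6 TPM) and SPRED3 (22.3 TPM). Neighbours in this order did not overlap across the 3 libraries except ETV4 with SPRED2 and SPRED2 with SPRY4, whose ranges overlapped. With erianin the order became ETV5 (105 TPM), SPRY4 (65.5 TPM), SPRED2 (54.6 TPM), ETV4 (50.2 TPM), SPRED1 (36.6 TPM) and SPRED3 (11.1 TPM). No neighbours overlapped in the erianin libraries, and by group means SPRY4 stood 2 ranks higher and ETV4 2 ranks lower than with DMSO. The DMSO order of these genes varied by library. In DMSO replicates 1 and 2 SPRY4 (49.1 and 49.3 TPM) already lay above SPRED2 (47.5 and 48.7 TPM). In DMSO replicate 3 ETV4 (45.9 TPM) already lay below SPRY4 (50.3 TPM) and SPRED2 (61.9 TPM).

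**Figure D2:**
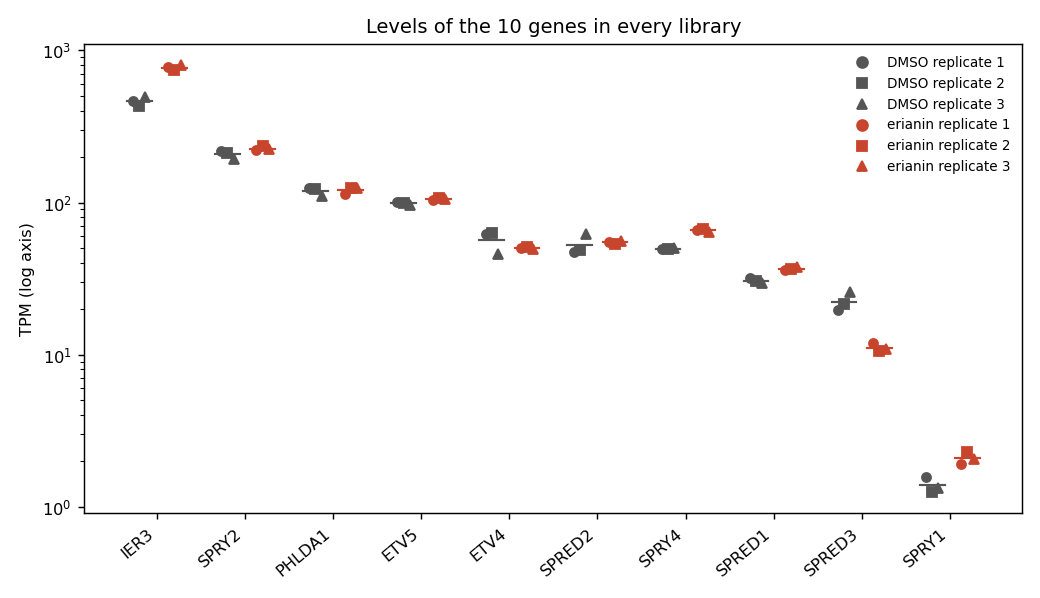
Levels of the 10 genes in TPM on a log axis, in the order of their mean with DMSO. Each point is 1 library, grey for DMSO and red for erianin, and the short lines are group means. The mean of SPRED3 is 22.3 TPM with DMSO and 11.1 TPM with erianin, and IER3 lies above all others in every library.

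The SPRED proteins share the EVH1 and Sprouty-related domains and hold Ras signalling down by recruiting neurofibromin. SPRED3 (ENSG00000188766, GRCh38 chr19:38388421-38399587, plus strand) measured 32.1, 35.2 and 46.1 CPM in DMSO replicates 1, 2 and 3. In erianin replicates 1, 2 and 3 it measured 17.5, 15.7 and 15.8 CPM. Every erianin library was below every DMSO library, and DMSO replicate 3 was the highest of all. The mean fell from 37.8 ± 7.36 to 16.3 ± 1.01 CPM (SD, n = 3), a log2 fold change of -1.21 (SE 0.15, 95% interval -1.56 to -0.87) with an adjusted p of 0.00419 in edgeR. Without DMSO replicate 3 the log2 fold change was -1.05 (95% interval -1.21 to -0.89) with an adjusted p of 5.67e-13. These values rest on 547 to 1436 reads per library. Fewer cells that express a gene and less of its RNA per cell cannot be told apart in these bulk samples.

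SPRED1 (ENSG00000166068, chr15:38252326-38357249, plus strand), the family member mutated in Legius syndrome, measured 50.0, 47.4 and 50.5 CPM with DMSO and 50.3, 52.1 and 52.0 CPM with erianin. The groups overlapped, and the log2 fold change was 0.06 (95% interval -0.11 to 0.24) with an adjusted p of 0.632 in edgeR, and 0.08 with an adjusted p of 0.28 without DMSO replicate 3. SPRED2 (ENSG00000198369, chr2:65310851-65432637, minus strand), a further Ras-pathway inhibitor of the family, measured 81.5, 83.0 and 116 CPM with DMSO and 83.9, 83.0 and 84.6 CPM with erianin. DMSO replicate 3 stood alone at the top for SPRED2, and the other 5 libraries lay within a narrow range. The log2 fold change of SPRED2 was -0.16 (95% interval -0.48 to 0.16) with an adjusted p of 0.492, and it was 0.02 (95% interval -0.08 to 0.12) without DMSO replicate 3, with an adjusted p of 0.726. The 3 paralogs thus gave 1 call, and neither SPRED1 nor SPRED2 passed the test with or without that library.

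Because a share within a family and a library does not depend on how libraries are scaled to each other, each gene's share of its family's summed TPM was also compared, 7 shares in all. SPRED3 made up 19.8%, 21.4% and 22.0% of the SPRED sum with DMSO and 11.6%, 10.5% and 10.5% with erianin. Its share was 10.2 percentage points lower with erianin (means 21.1% ± 1.16 and 10.9% ± 0.667, SD, n = 3), and all 3 erianin libraries were below every DMSO library. The exact permutation test gave p = 0.1, two-sided, the smallest that 3 against 3 libraries allow, and 0.117 after adjustment over the 7 shares, so this design could not place any share under the threshold. The SPRED1 share was between 25.2% and 32.2% with DMSO and between 35.0% and 36.4% with erianin. The SPRED2 share was between 48.0% and 52.8% with DMSO and between 53.1% and 53.6% with erianin. Both were higher in every erianin library, and since the 3 shares sum to 100%, the lower SPRED3 share by itself raises them. The summed SPRED level was 106 TPM with DMSO and 102 TPM with erianin. By replicate it was 99, 101 and 117 TPM with DMSO and 102, 100 and 104 TPM with erianin. The higher DMSO mean thus rests on DMSO replicate 3. The median over all tested genes was itself 0.18 higher with erianin on the TPM scale (log2).

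**Figure D3:**
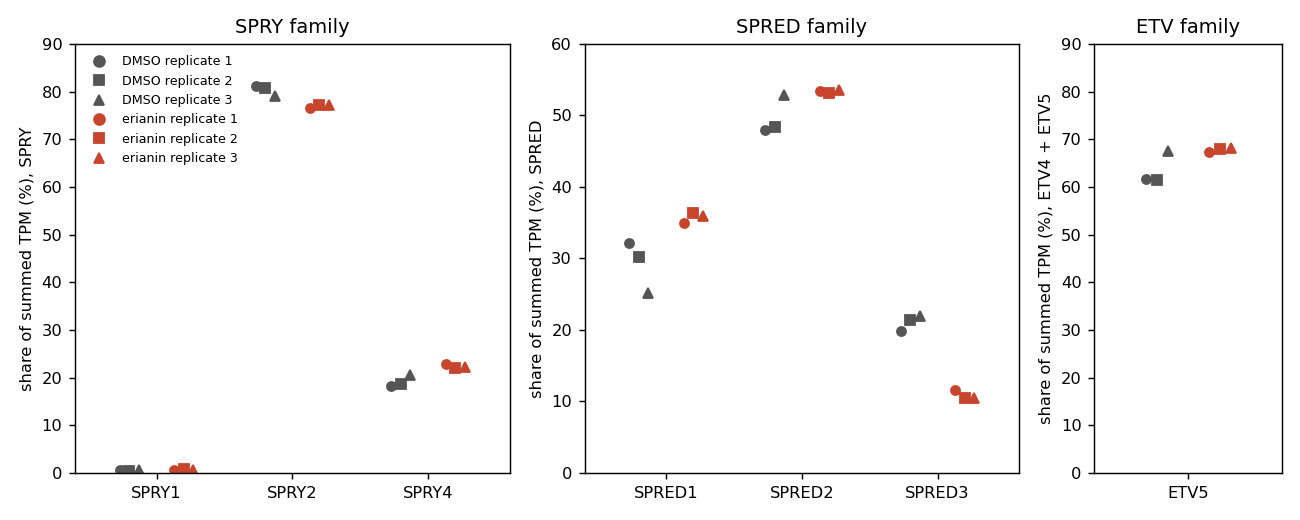
Share of each gene in the summed TPM of its family (percent), for the SPRY, SPRED and ETV families, with 1 point per library, grey for DMSO and red for erianin. SPRED3 falls from a mean of 21.1% to 10.9% of the SPRED sum, and the ETV5 share of DMSO replicate 3 lies among the erianin libraries.

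The promoter windows of the SPRED genes are printed here because the called member and its uncalled paralogs can be set side by side. They run from 250 bases before to 50 bases after an annotated start, 300 bases in all, are written 5′ to 3′ on the gene's strand and come from RefSeq on GRCh38.p14, where 7 of the 10 genes had an entry, with 12 windows. Capitals mark matches to the AP-1 letters TGANTCA, which bind factors of the FOS and JUN families.

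SPRED3 window 1, chr19:38389541-38389840, plus strand: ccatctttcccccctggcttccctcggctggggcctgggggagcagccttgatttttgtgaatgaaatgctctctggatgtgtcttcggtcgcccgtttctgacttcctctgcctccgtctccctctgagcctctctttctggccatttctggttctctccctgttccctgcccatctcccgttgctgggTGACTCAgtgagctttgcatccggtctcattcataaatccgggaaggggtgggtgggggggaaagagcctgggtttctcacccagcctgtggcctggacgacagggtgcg
SPRED3 window 2, chr19:38388447-38388746, plus strand: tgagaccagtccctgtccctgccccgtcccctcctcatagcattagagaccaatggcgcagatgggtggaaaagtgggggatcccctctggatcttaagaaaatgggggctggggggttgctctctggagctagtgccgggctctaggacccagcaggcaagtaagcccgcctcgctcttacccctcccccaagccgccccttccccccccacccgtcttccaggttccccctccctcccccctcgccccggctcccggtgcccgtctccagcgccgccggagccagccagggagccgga
SPRED2 window 1, chr2:65432550-65432849, minus strand: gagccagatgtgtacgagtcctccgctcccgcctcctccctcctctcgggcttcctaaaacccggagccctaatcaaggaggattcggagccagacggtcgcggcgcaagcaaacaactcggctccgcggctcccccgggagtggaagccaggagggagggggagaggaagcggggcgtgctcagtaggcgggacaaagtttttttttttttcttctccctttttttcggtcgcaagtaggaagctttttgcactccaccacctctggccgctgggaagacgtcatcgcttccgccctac
SPRED2 window 2, chr2:65366729-65367028, minus strand: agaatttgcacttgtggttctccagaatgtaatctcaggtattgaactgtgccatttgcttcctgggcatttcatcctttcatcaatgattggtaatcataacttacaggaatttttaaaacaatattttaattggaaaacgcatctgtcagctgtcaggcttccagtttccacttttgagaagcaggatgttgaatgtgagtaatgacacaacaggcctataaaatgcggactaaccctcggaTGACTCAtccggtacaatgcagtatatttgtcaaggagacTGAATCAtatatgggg
SPRED1 window 1, chr15:38252586-38252885, plus strand: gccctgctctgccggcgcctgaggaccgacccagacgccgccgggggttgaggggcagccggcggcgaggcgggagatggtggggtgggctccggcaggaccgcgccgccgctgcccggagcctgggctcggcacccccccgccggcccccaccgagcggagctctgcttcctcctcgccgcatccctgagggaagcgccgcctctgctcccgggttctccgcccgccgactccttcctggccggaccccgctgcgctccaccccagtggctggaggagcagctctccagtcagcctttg

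SPRED3 window 1 held 1 AP-1 match, which begins 60 bases before the start, and SPRED3 window 2 held none. SPRED2 window 2 held 2 matches, the first of them 6 bases before the start and the other at base 35 after it. These were the 2 windows with an AP-1 match among the 12, while 7.71% of all 35116 windows of this length hold one. The ETS letters CCGGAAG were found in 1 of the 12 windows, window 2 of SPRY1, against 10.3% of all windows, and the CRE letters TGACGTCA in 0 of the 12, against 1.85%. All 3 motifs were searched on both strands, and no match overlapped another. A match describes the letters only, since binding was not measured.

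SPRY proteins are induced by receptor tyrosine kinase signalling and inhibit it upstream of ERK. SPRY2 (ENSG00000136158, chr13:80335976-80340951, minus strand), which binds the ubiquitin ligase CBL and the adaptor GRB2, supplied most of the SPRY RNA. It measured 175, 168 and 168.5 CPM in DMSO replicates 1, 2 and 3 and 158, 169.7 and 157 CPM in the erianin replicates. The groups overlapped because erianin replicate 2 reached the level of the DMSO libraries. The log2 fold change of SPRY2 was -0.08 (SE 0.07, 95% interval -0.23 to 0.08) with an adjusted p of 0.475 in edgeR, and -0.09 with an adjusted p of 0.0829 without DMSO replicate 3.

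SPRY4 (ENSG00000187678, chr5:142310427-142326455, minus strand), an inhibitor of the same signal that also binds the kinase TESK1, measured 117, 116 and 130.2 CPM with DMSO and 139, 144 and 134.5 CPM with erianin. All erianin libraries lay above all DMSO libraries, and the gap was smallest between DMSO replicate 3 and erianin replicate 3. The log2 fold change was 0.20 (SE 0.08, 95% interval 0.03 to 0.38) with an adjusted p of 0.117 in edgeR, so SPRY4 was not called. Without DMSO replicate 3 it was 0.25 (95% interval 0.16 to 0.35) with an adjusted p of 1.78e-05, which is still below the fold-change threshold.

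SPRY1 (ENSG00000164056, chr4:123396795-123403760, plus strand), a feedback inhibitor best known from kidney development, was covered by only 82 to 156 reads per library. It measured 3.37, 2.65 and 3.08 CPM with DMSO and 3.63, 4.47 and 3.85 CPM with erianin, again without overlap between the groups. Its log2 fold change of 0.40 had a wide interval, 0.02 to 0.78, and an adjusted p of 0.148 in edgeR, and it was 0.42 with an adjusted p of 0.0569 without DMSO replicate 3.

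Within the SPRY family, SPRY2 held 81.2%, 80.8% and 79.0% of the summed TPM with DMSO and 76.6%, 77.3% and 77.1% with erianin, a difference of -3.33 percentage points. SPRY4 held 18.2%, 18.7% and 20.5% with DMSO and 22.8%, 22.0% and 22.2% with erianin, a difference of 3.15 points. The SPRY1 share was 0.533% ± 0.055 and 0.709% ± 0.0504 (SD, n = 3). The shares did not overlap between the groups, with an exact p of 0.1, but SPRY2 and SPRY4 make up nearly the whole sum, so their shares are 1 observation seen from both sides. The summed SPRY level was 259 TPM with DMSO and 294 TPM with erianin, on a scale whose median over all tested genes was itself 0.18 higher with erianin (log2).

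ETV4 and ETV5 belong to the PEA3 group of ETS factors, are transcribed in response to ERK and are removed by the COP1 and DET1 ubiquitin ligase. ETV4 (ENSG00000175832, chr17:43527844-43579620, minus strand) measured 159, 158 and 127 CPM in DMSO replicates 1, 2 and 3. In the erianin replicates it measured 114, 117 and 111 CPM. In CPM the erianin libraries lay below all DMSO libraries, and DMSO replicate 3 lay between the other DMSO libraries and the erianin group. In TPM the groups overlapped. The mean was 148 ± 18.1 CPM with DMSO and 114 ± 2.95 CPM with erianin, a log2 fold change of -0.37 (SE 0.10, 95% interval -0.60 to -0.14) with an adjusted p of 0.0438 in edgeR. ETV4 thus passed the adjusted p but not the fold-change threshold. Without DMSO replicate 3 the log2 fold change was -0.48 (95% interval -0.57 to -0.39) with an adjusted p of 6.74e-11, and with any other single library left out the adjusted p was 0.124 to 0.177.

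ETV5 (ENSG00000244405, chr3:186046308-186110318, minus strand), the closest relative of ETV4 in the list, measured 208, 204 and 215 CPM with DMSO and 190.5, 201 and 193 CPM with erianin. In CPM the erianin libraries were all lower, but the gap between the nearest libraries of the groups was small. In TPM they were all higher, at 103 to 107 TPM against 95.8 to 101 TPM with DMSO. The log2 fold change of ETV5 was -0.10 (SE 0.06, 95% interval -0.25 to 0.05) with an adjusted p of 0.328 in edgeR, and -0.08 with an adjusted p of 0.0896 without DMSO replicate 3. ETV5 held 61.7%, 61.4% and 67.6% of the summed ETV4 and ETV5 TPM with DMSO and 67.3%, 67.9% and 68.1% with erianin. Here DMSO replicate 3 lay inside the erianin range, and the difference of 4.17 points had an exact permutation p of 0.2. Without that library the difference was 6.19 points.

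PHLDA1 (ENSG00000139289, chr12:76025447-76033932, minus strand), a pleckstrin homology-like protein, measured 404, 396.5 and 393 CPM with DMSO and 331, 367 and 360.1 CPM with erianin. In CPM all erianin libraries were lower, and erianin replicate 1 was the lowest, while in TPM the groups overlapped. The log2 fold change was -0.17 (SE 0.07, 95% interval -0.33 to -0.01) with an adjusted p of 0.136 in edgeR. Without DMSO replicate 3 it was -0.19 with an adjusted p of 0.000403.

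IER3 (ENSG00000137331, chr6:30743199-30744554, minus strand) responds to growth factors, NF-kB and stress, and its protein prolongs ERK activity and affects cell survival. It measured 199.7, 185 and 229.8 CPM in DMSO replicates 1, 2 and 3 and 297, 289 and 302 CPM in the erianin replicates. Every erianin library was above every DMSO library. The mean was 205 ± 22.9 CPM with DMSO and 296 ± 7.01 CPM with erianin, a log2 fold change of 0.53 (SE 0.09, 95% interval 0.32 to 0.74) with an adjusted p of 0.0114 in edgeR. Without DMSO replicate 3 it was 0.62 (95% interval 0.53 to 0.71) with an adjusted p of 1.3e-13. The fold change lies close to the threshold of 0.5: without DMSO replicate 2 it was 0.46, and without any 1 of the erianin libraries the adjusted p was 0.0619 to 0.0719, so that the call was lost in these 4 cases. Of the exonic bases of IER3, 26.5% are shared with the antisense gene IER3-AS1, which is listed at 0 in all libraries, and the strand setting of the counting is not given.

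**Figure D4:**
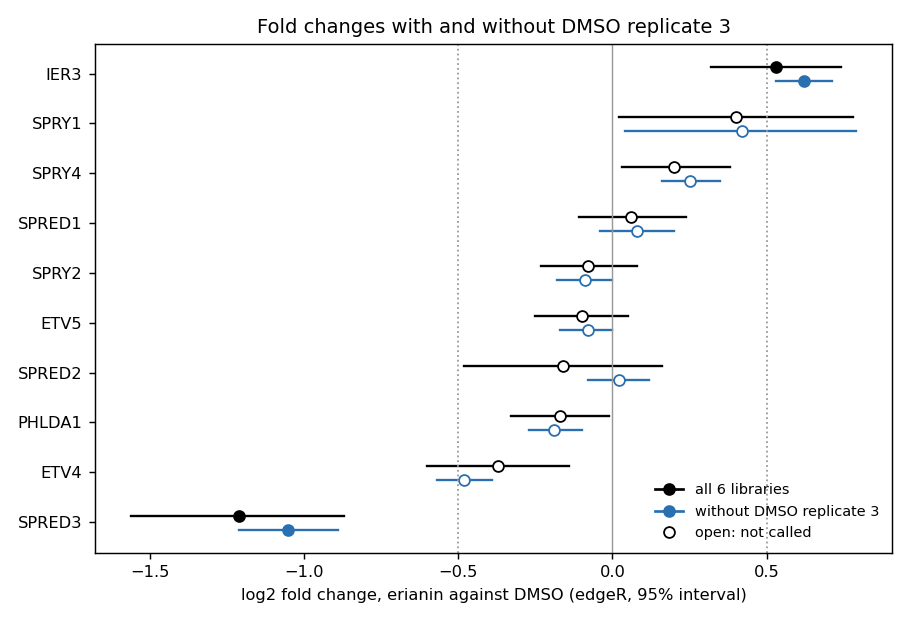
Log2 fold change of each gene, erianin against DMSO, with its 95% interval from edgeR, with all 6 libraries (black) and without DMSO replicate 3 (blue). Filled points were called, and the dotted lines mark the fold-change threshold of 0.5 in each direction. SPRED3 and IER3 were called in both fits, and SPRED2 moved from -0.16 to 0.02.

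For 7 of the 10 genes the CPM ranges of the groups were apart, 3 higher and 4 lower with erianin, against 38.7% of all tested genes. This split held in CPM only. In TPM the ranges of ETV4 and PHLDA1 overlapped, and those of ETV5, SPRY2 and SPRED1 were apart and higher with erianin. SPRY1, SPRY4 and IER3 stayed apart and higher in TPM, and SPRED3 apart and lower. Without DMSO replicate 3, 1 gene was again called higher and 1 lower, IER3 and SPRED3 as before, where 11.4% of 13053 tested genes were called higher and 6.11% lower. In that fit 5 of the 10 had an adjusted p under 0.05, 2 higher and 3 lower, against 55.2% of all tested genes. The median log2 fold change was then -0.03 over the 10 genes and 0.02 over all tested genes.

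The directions of the small differences depended on the unit. On log2(TPM + 1) values, tested with limma, the median over all tested genes rose to 0.18, and SPRY2 (0.12), ETV5 (0.10), SPRED2 (0.06) and PHLDA1 (0.02) were above 0. Relative to that shift the same 4 genes were at -0.06, -0.08, -0.12 and -0.15, as they were below 0 in CPM. On this scale SPRED3 was at -0.94 with an adjusted p of 0.0063 and IER3 at 0.73 with an adjusted p of 0.00524 in limma. SPRY4 (0.39, adjusted p 0.0099) and SPRED1 (0.25, adjusted p 0.0395) also passed the adjusted p there, below the fold-change threshold and 0.22 and 0.08 above the shift.

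The paralogs that the list leaves out gave no call in edgeR with all 6 libraries. SPRY3, the remaining Sprouty gene, was listed at 0.131 to 0.355 TPM, with a log2 fold change of -0.79 and an adjusted p of 0.145 in edgeR. ETV1, the third PEA3 factor, was at 1.11 to 1.86 TPM, with a log2 fold change of -0.59 and an adjusted p of 0.0518. It was called lower with DESeq2, with RLE scaling factors, with no low-count filter and with the GC trend removed. Without DMSO replicate 3 its log2 fold change was -0.41, and it was not called. PHLDA2, an imprinted relative of PHLDA1, was at 495 to 556 TPM with DMSO and 774 to 821 TPM with erianin, and its log2 fold change of 0.40 had an adjusted p of 0.00972 and stayed below the fold-change threshold. PHLDA3, a p53 target, had a log2 fold change of 0.17 with an adjusted p of 0.706. It was lowest in DMSO replicate 3, at 11.6 CPM, and without that library its log2 fold change was -0.11 (adjusted p 0.238 in edgeR).

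Of 15 genes whose products bind or serve SPRY and SPRED proteins, 0 were called by edgeR, where 5.37% of all tested genes were called higher and 3.36% lower. PTPN11, which encodes the phosphatase SHP2, was the single one with an adjusted p under 0.05, against 14.9% of all tested genes, at 162, 165 and 184 CPM with DMSO and 213, 226 and 216 CPM with erianin (log2 fold change 0.36, adjusted p 0.0213). The other 2 genes of highest level were SIAH2, a ubiquitin ligase for SPRY2 (0.26, adjusted p 0.098), and PPP2CA, a catalytic subunit of phosphatase 2A (0.30, adjusted p 0.113). CBLB, a ubiquitin ligase related to CBL, was called higher without DMSO replicate 3 (0.69, adjusted p 1.97e-07), and it was named after its values were seen. The median log2 fold change of these 15 genes was 0.01, and it was 0.21 without DMSO replicate 3. In that fit 12 of the 15 had an adjusted p under 0.05, 10 higher and 2 lower, against 55.2% of all tested genes.

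Of 16 ETS factors and regulators of ETV proteins, 15 were tested and 0 were called by edgeR, against the same 5.37% and 3.36% of all tested genes, and COP1 was listed at 0 in all libraries. Whether this 0 reflects the expression of COP1 or how reads were assigned to its identifier was not tested. Chosen after their values were seen, the 4 genes with an adjusted p under 0.05, which 14.9% of all tested genes had, were ETV3 (0.50, adjusted p 0.00972), ETS2 (0.44, adjusted p 0.0204) and ETS1 (0.36, adjusted p 0.0304), which were higher, and DET1 (-0.41, adjusted p 0.039), which was lower. ETV3 is an ETS repressor, ETS1 and ETS2 are ERK-phosphorylated activators, and DET1 is the partner of COP1 in the ligase for ETV proteins. The most abundant of the list beside ETS1 were ELK3, a ternary complex factor (-0.45, adjusted p 0.0922), and DDB1, a ligase adaptor (-0.15, adjusted p 0.277). ETV3 was called higher without DMSO replicate 3 (0.54, adjusted p 3.37e-09). The list median was -0.09, equal to that of the 10 genes.

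Among 18 other genes of ERK output, 4 were called higher and 0 lower by edgeR, where 5.37% and 3.36% of all tested genes were. They were AREG, an EGF receptor ligand (0.89, adjusted p 0.00274), DUSP5, a nuclear ERK phosphatase (0.78, adjusted p 0.0186), EPHA4, an ephrin receptor (0.62, adjusted p 0.0351), and DUSP4, a further nuclear MAP kinase phosphatase (0.83, adjusted p 0.0426). AREG measured 14.85 to 16.4 CPM with DMSO and 27.4 to 29.4 CPM with erianin, and DUSP5 measured 191.5 to 297 and 432.5 to 451 CPM. The other calls rest on low levels. EPHA4 had 48 to 108 reads per library, at 0.476 to 0.984 TPM, and DUSP4 had 60 to 162 reads, at 1.26 to 3.63 TPM. HBEGF, an EGF receptor ligand (0.30, adjusted p 0.0234), CCND1, the gene of cyclin D1 (-0.45, adjusted p 0.00901), and LIF, a cytokine (-0.36, adjusted p 0.0386), passed the adjusted p alone, HBEGF and CCND1 being named after their values were seen. EGR1 (-0.30, adjusted p 0.158) and FOSL1 (-0.21, adjusted p 0.303), immediate-early transcription factors and with LIF the most abundant of the list, did not. Of the 4 calls, AREG was kept whichever library was left out. DUSP5 was not called without any 1 of the erianin libraries (adjusted p 0.0824 to 0.088), DUSP4 without any 1 of these or DMSO replicate 2 (0.123 to 0.16), and EPHA4 without any library but DMSO replicate 3 (0.0855 to 0.145). The list median was 0.21, and without DMSO replicate 3 it had 4 genes called higher and 1 called lower, SPHK1 (-0.55, adjusted p 7.72e-13), which was named after its values were seen.

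**Figure D5:**
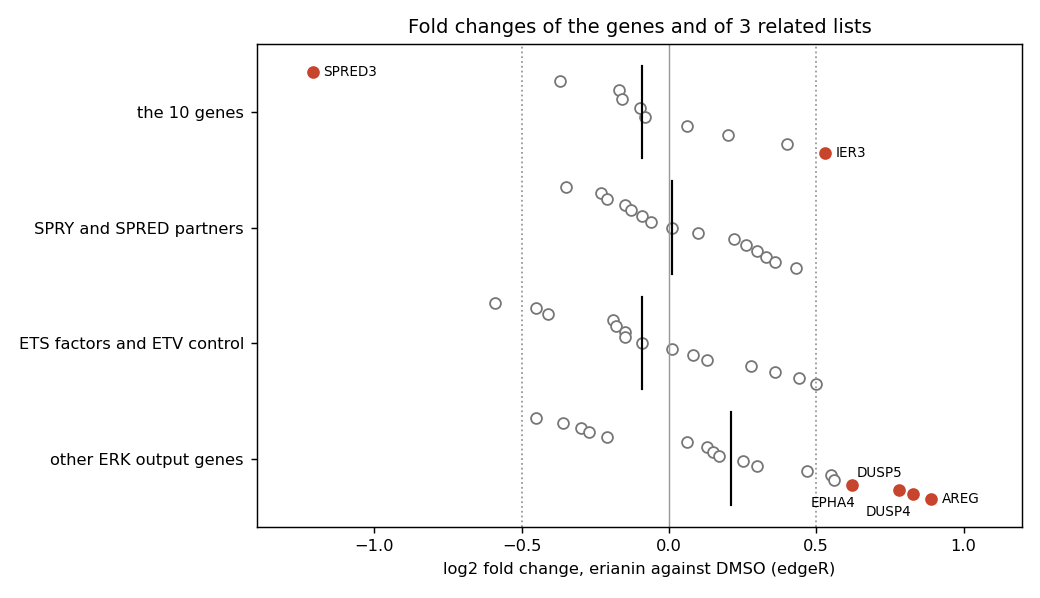
Log2 fold changes (edgeR, all 6 libraries) of the 10 genes and of 3 related lists, 1 point per tested gene, ordered by value within a list. Red points were called and are named, open points were not, vertical bars are list medians, and dotted lines mark the fold-change threshold. The 10 genes hold 1 called gene on each side, and the 4 called genes of the other lists lie above 0.5 among the ERK output genes.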

How the data were processed

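Total RNA of 6 CAL62 libraries (3 with 50 nM erianin, 3 with DMSO, 48 h) was sequenced on the BGISEQ-500 platform. The files deposited by the authors hold raw counts of reads on each gene and TPM values of the same genes. The TPM columns followed the counts with 1 length per gene to within 0.0151% over 11429 genes, and they sum to 59.1% of their nominal total in DMSO replicate 3 and to 72.6% to 78.3% in the others. The submitters' processing notes name fastp 0.23.2, STAR 2.7.10, featureCounts 2.0.1, StringTie 2.2.1 and the build GRCh38 (hg38), without roles. The strand setting is not given in the sources used here.

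Of 65807 rows, 26480 without an identifier hold at most 0.00515% of counts and were left out. Counts were tested with edgeR 4.0.16 (TMM, filterByExpr, quasi-likelihood F test, R 4.3.3) on the whole table, with Benjamini-Hochberg adjusted p over all tested genes. CPM were scaled with TMM factors. Intervals cover 95%. Shares of family TPM were compared by an exact permutation test (scipy 1.17.1, Python 3.11.15, pandas 2.3.3). Positions are from GENCODE 29 (GRCh38). On simulated counts over 12791 genes with a coefficient of variation of 0.1, below the 0.139 that edgeR estimated from the 6 libraries, edgeR recovered 95 of 100 genes changed by a log2 fold change of 1 and 100 of 100 changed by 2, with 6 unchanged genes called. The simulation held no outlying library such as DMSO replicate 3, so these figures do not give the recovery in the real libraries.

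The 10 genes and the related lists were chosen with earlier results of these data known. Of each related list, every called gene and the 3 with the highest mean TPM were named, as were 4 paralogs. A marker of the thyroid list is not reported here. Alternatives were DESeq2 1.42.0, other scaling factors and filters, limma 3.58.1 on log2 TPM, removal of each library's GC trend (loess span 0.5), the replicate block, other thresholds and each library left out.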

Additional observations from a re-analysis of the deposited data

How the results depend on the processing

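Each of the 10 fold changes was recomputed under 16 alternatives, 160 values in all, of which 124 kept their direction and side of the adjusted p threshold, 13 lost the threshold, 9 gained it and 14 changed sign. SPRED3 kept both in 16 of 16, from -1.32 to -0.94, with an adjusted p of at most 0.0397. IER3 lost the adjusted p in 3 and ETV4 in 10. In the limma fits on TPM, SPRY2 (0.12), ETV5 (0.10), SPRED2 (0.06) and PHLDA1 (0.02) were above 0 under each of a pseudocount of 1, of 0.1 and of 1 without a filter. With the filter and a pseudocount of 1, the median over all tested genes was 0.18. Relative to it these genes were at -0.06, -0.08, -0.12 and -0.15. SPRED2 was between -0.25 and 0.02 with 1 library left out, above 0 without DMSO replicate 3 alone, and SPRED1 was -0.12 with the GC trend removed. The cause was not tested.

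Of the 10 genes, 0 were called higher with an absolute log2 fold change over 1, and 2 were called lower with no fold-change threshold. Leaving out 1 library gave 0 to 1 called higher and 1 called lower. For the SPRY and SPRED partners the called-higher count of 0 became 1, 3 and 1 in the 3 TPM fits, 1 with no fold-change threshold and 0 to 1 with 1 library left out. Over all genes, these TPM fits called 1098 of 11670, 1207 of 11670 and 1057 of 18052 higher, but 94, 110 and 88 lower. Their median log2 fold changes over all genes were 0.18, 0.20 and 0.12. For the ETS list it became 1 with upper-quartile factors and where each library had to hold 10 counts, 3 in each TPM fit and with no fold-change threshold, and 0 to 1 with 1 library left out. Over all genes, upper-quartile factors gave 822 of 12821 called higher, and the filter of 10 counts gave 598 of 12005. Its called-lower count of 0 became 1 with DESeq2, RLE factors and no low-count filter, in each case ETV1. It became 1 with no fold-change threshold, and 3 with the GC trend removed, namely ETV1, DET1 and ELK3. Over all genes, 527 of 18052, 444 of 12821 and 483 of 18052 were called lower with DESeq2, RLE factors and no low-count filter. With the GC trend removed 670 of 12686 were. For the other ERK output genes the 4 called higher became 0 at a threshold of 1 and 1 to 4 with 1 library left out, and the 0 called lower became 2 with no fold-change threshold and 0 to 1 with 1 library left out.

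With the replicate block, AREG and DUSP5, 2 of those 4 ERK output genes, were called and ETV4 had an adjusted p of 0.0799 in edgeR, while SPRED3 (-1.20) and IER3 (0.54) were called. The numbers did not pair the libraries: the correlations of same-numbered deviations were 0.00138, 0.0253 and -0.0329. Over all genes, 688 higher and 431 lower calls became 1485 and 797 without DMSO replicate 3, and 172 to 184 and 126 to 144 without an erianin library. Across genes, the deviations of DMSO replicate 3 from the mean of all libraries correlated with GC content at -0.351, against 0.334 and 0.424 in the other DMSO libraries. In the erianin libraries the correlations were -0.0931, -0.141 and -0.124. The fits without DMSO replicate 3 thus compare groups whose GC trends differ in sign. With the GC trend removed SPRED3 (-1.25) and IER3 (0.50) were still called.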
